A study of Caenorhabditis elegans with 12 samples.

Results

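The 6 pud genes of Caenorhabditis elegans (pud-1.1, pud-1.2, pud-2.1, pud-2.2, pud-3 and pud-4) were examined among 46217 gene identifiers in RNA sequencing of day 1 adult worms. They were picked by name, after pud-3 had shown the largest decrease, among genes with at least 1 FPKM (fragments scaled by transcript length and mapped fragments) in both strains, when rde-1(ne219); cpl-1* was set against cpl-1*, so their values in that comparison are a description and not a test. All 6 symbols were found, each on 1 identifier. The series holds total RNA from whole hermaphrodites of 4 strains, each with 3 samples. The double strain, PP2246, carries rde-1(ne219) on chromosome V together with the cpl-1* transgene hhIs113 on chromosome I, and its genotype label gives the substitutions W32A and Y35A, a YFP tag and a pharyngeal mCherry marker under the myo-2 promoter. The cpl-1* strain, PP1386, carries hhIs113 with a wild-type rde-1 allele, but its genotype label gives W32A and W35A and a gfp tag. Wild-type worms were strain PP1, a DR subclone of the original isolate. The cpl-1WT strain, PP1350, was not analysed here. The transgene of both cpl-1* strains is driven by the nhx-2 promoter, which is active in the intestine, and encodes a form of the lysosomal cathepsin CPL-1 that misfolds, while RDE-1 is an Argonaute of the exogenous RNAi pathway.

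Each gene had 1 value per strain, which the authors had pooled over the samples. The unit is FPKM, fragments per kilobase of transcript and per mapped fragments, so levels can be set side by side between genes. With 1 pooled value there is no spread between samples, no error and no test for any value below, and the depth of the single samples is unknown. The level of rde-1 was 19.3 FPKM in the double strain, 28.0 FPKM in cpl-1* worms and 28.3 FPKM in wild-type worms. The ne219 lesion is a substitution that need not remove the transcript, so this level does not check the genotype. For cpl-1, the levels were 9749 FPKM in the double strain, 2920 FPKM in cpl-1* worms and 1377 FPKM in wild-type worms, with transgenic and endogenous mRNA counted together.

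The name pud stands for protein upregulated in daf-2, because PUD-1 and PUD-2 were found at raised levels in mutants of the insulin-like receptor DAF-2. When this receptor is inactive, the transcription factor DAF-16 enters the nucleus and turns on genes for stress resistance and metabolism. PUD-1 and PUD-2 bind each other as a heterodimer, and are made mainly in the intestine and epidermis of adult worms. PUD-3 and PUD-4 are their homologues, and the biochemical role of the family is not established. The annotation in the deposited table lists a Gene Ontology term for 0 of the 6 genes.

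The genes form a compact cluster of 8893 bases on chromosome V of WBcel235, from 2322038 to 2330930, built of 3 head-to-head pairs. In each pair the gene on the minus strand lies first and its partner on the plus strand points away from it. The first pair holds pud-1.2 (WBGene00021236, Y19D10B.7, V:2322038-2322566, minus strand) and pud-2.2 (WBGene00017500, F15E11.14, V:2323014-2323524, plus strand). The middle pair holds pud-3 (WBGene00017501, F15E11.15, V:2324634-2325152, minus strand) and pud-4 (WBGene00017498, F15E11.12, V:2326678-2327282, plus strand). The last pair holds pud-2.1 (WBGene00017490, F15E11.1, V:2329444-2329954, minus strand) and pud-1.1 (WBGene00017499, F15E11.13, V:2330429-2330930, plus strand). Ensembl release 115 gives the symbol pud-2.2 to WBGene00017490 as well as to WBGene00017500, so the symbols of the deposited table were kept here. In the deposited table, pud-3 and pud-4 share 1 locus, V:2324510-2327262, while the other members have a locus each.

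The outer pairs mirror each other. In both, 474 bases lie between the facing start codons, against 1525 bases in the middle pair. The coding parts of exon 1 and exon 2 measure 256 and 197 bases in pud-1.1 and the same in pud-1.2, and the intron of each is 46 bases long. In pud-2.1 and pud-2.2 they measure 253 and 209 bases, also with an intron of 46 bases. The coding sequences give 151 codons for both pud-1 genes and 154 for both pud-2 genes. By contrast, pud-3 is a single exon of 172 codons, and pud-4 has 2 annotated transcripts, the first of which has 2 exons and 162 codons. Where copies are near identical, reads can be divided between them, so the split of a level between pud-1.1 and pud-1.2, or between pud-2.1 and pud-2.2, is uncertain. Sequences were not compared here.

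The pud-3 mRNA was the most abundant of the family in all 3 strains. It had 6.44 FPKM in the double strain, 484 FPKM in cpl-1* worms and 219 FPKM in wild-type worms. The level in the double strain was 75.1-fold lower than in cpl-1* and 34.0-fold lower than in wild type. In rank, pud-3 lay above 98.0% of the genes tested in cpl-1* worms and above 95.5% in wild type, but above only 34.0% in the double strain. Genes tested are the 15971 identifiers with at least 1 FPKM in any of the 3 strains.

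The pud-4 mRNA, from the gene that faces pud-3, came second in every strain. Its levels were 3.45 FPKM in the double strain, 188 FPKM in cpl-1* worms and 94.2 FPKM in wild-type worms. The double strain was thus 54.5-fold below cpl-1* and 27.3-fold below wild type. The FPKM of pud-3 was 1.87 times that of pud-4 in the double strain, 2.57 times in cpl-1* and 2.32 times in wild type. These 2 genes made up nearly all of the family's summed FPKM, with pud-3 alone at 61.3% in the double strain, 70.6% in cpl-1* and 67.8% in wild type.

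**Figure D1:**
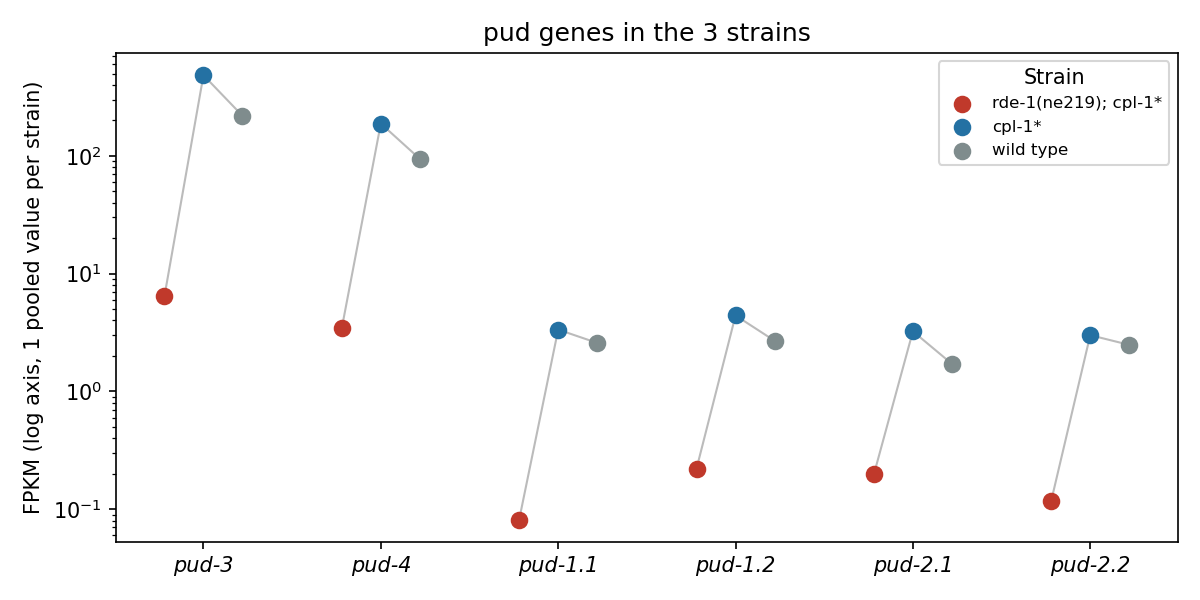
FPKM of the 6 pud genes on a log axis, with 1 point per strain (red, rde-1(ne219); cpl-1*; blue, cpl-1*; grey, wild type), each pooled by the authors over 3 samples, and a thin line joining the points of a gene. In all 6 genes the order is the same, with the double strain lowest and cpl-1* highest, and pud-3 and pud-4 lie far above the other 4 in every strain.

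The genes of the outer pairs were expressed at a small fraction of these levels. The pud-1.1 mRNA had 0.0814 FPKM in the double strain, 3.35 FPKM in cpl-1* and 2.58 FPKM in wild type. For pud-1.2, the levels were 0.221 FPKM in the double strain, 4.41 FPKM in cpl-1* and 2.69 FPKM in wild type. Both encode PUD-1, the first partner of the heterodimer, and both lay below 1 FPKM in the double strain only.

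The genes for the second partner, PUD-2, had similar levels. The pud-2.1 mRNA had 0.197 FPKM in the double strain, 3.24 FPKM in cpl-1* and 1.71 FPKM in wild type. Likewise, pud-2.2 had 0.118 FPKM in the double strain, 3.001 FPKM in cpl-1* and 2.48 FPKM in wild type. The 4 low genes were 16.42-fold (pud-2.1) to 41.1-fold (pud-1.1) lower in the double strain than in cpl-1*, and 8.69-fold (pud-2.1) to 31.7-fold (pud-1.1) lower than in wild type. Their highest level in the double strain was 0.221 FPKM, and their lowest in the other strains was 1.71 FPKM. These 4 genes reached 1 FPKM, and so entered the genes tested, through cpl-1* and wild type only.

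Since the copies may exchange reads, the levels were also summed within each product. The 2 pud-1 genes together had 0.302 FPKM in the double strain, 7.76 FPKM in cpl-1* and 5.27 FPKM in wild type. The 2 pud-2 genes together had 0.315 FPKM in the double strain, 6.24 FPKM in cpl-1* and 4.20 FPKM in wild type. As sums, PUD-1 and PUD-2 transcripts were thus close to each other in each strain, and the double strain was 25.7-fold (pud-1) and 19.8-fold (pud-2) lower than cpl-1*. Over all 6 genes the summed level was 10.5 FPKM in the double strain, 685 FPKM in cpl-1* and 322 FPKM in wild type.

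The small values in the double strain were set beside those of other genes of this size. Among 703 identifiers whose locus spans 450 to 600 bases, 504 had a value above 0 in the double strain, and the lowest of these was 0.0273 FPKM. The counting error of the 4 low genes, at 0.0814 to 0.221 FPKM in the double strain, is unknown.

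Gene ratios were next compared on the log2 scale after adding 1 FPKM to each value, which keeps such small values from dominating but understates the change of low genes. On this scale the median gene was 0.12 higher in the double strain than in cpl-1* and 0.11 higher than in wild type. A 2-fold or greater decrease in the double strain relative to cpl-1* was found in 6 of the 6 pud genes and in 11.1% of all genes tested. This is the comparison by which the genes were picked, so nothing is read from that count. The log2 ratios were -6.03 for pud-3, -5.41 for pud-4, -2.01 for pud-1.1, -2.15 for pud-1.2, -1.82 for pud-2.1 and -1.84 for pud-2.2. Relative to the median gene, pud-3 was at -6.15 and pud-4 at -5.53. At a 4-fold threshold, 4 of 6 genes were lower (pud-3, pud-4, pud-1.1 and pud-1.2), beside 1.98% of all genes tested. Without the added 1 FPKM, which shrinks the ratios of low genes, those of the 4 low members span -4.04 (pud-2.1) to -5.36 (pud-1.1).

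Among the 13557 genes with at least 1 FPKM in both cpl-1* strains, pud-3 and pud-4 ranked 1 and 2 for the decrease without an added FPKM, at log2 ratios of -6.23 and -5.77. The rank of pud-3 only restates how the family was picked. The next gene outside the family was C32H11.4, which had 1.09 FPKM in the double strain and 34.5 FPKM in cpl-1* (log2 ratio -4.99). It was followed by pho-11, which encodes a predicted acid phosphatase, with 3.87 FPKM in the double strain and 104 FPKM in cpl-1* (log2 ratio -4.74). Both are named because they stand next to the family in this order. The minimum in both strains leaves out genes that were at or near 0 in the double strain, such as D1065.6 and the 4 low pud genes. Over all 15971 genes tested, on the log2 scale with 1 FPKM added, pud-3 ranked 4 and pud-4 ranked 6.

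**Figure D2:**
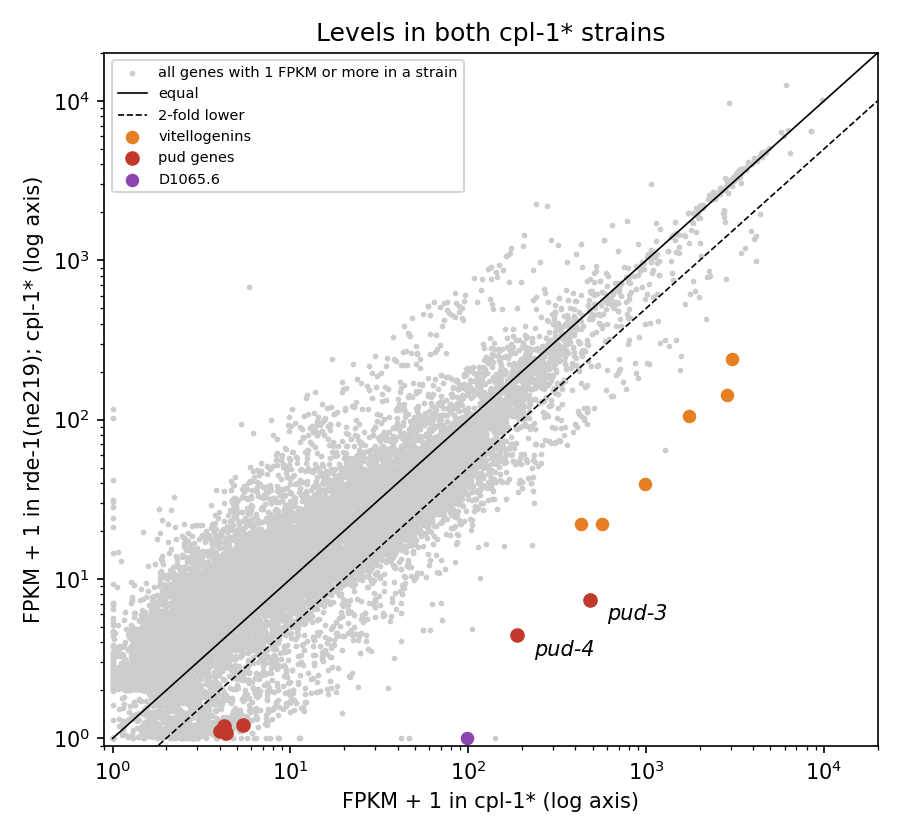
FPKM + 1 of every gene tested in rde-1(ne219); cpl-1* (vertical) against cpl-1* (horizontal), both on log axes, with 1 pooled value per strain. The solid line marks equal levels and the dashed line a 2-fold lower level; pud-3 and pud-4 (red, labelled) lie farther below the lines than the vitellogenins (orange), the 4 low pud genes sit at the lower edge, and D1065.6 (purple) is listed at 0 in the double strain.

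Compared with wild type, the double strain gave the same direction. All 6 genes were 2-fold or more lower, as were 15.8% of all genes tested. On the log2 scale with 1 FPKM added the ratios were -4.88 for pud-3 and -4.42 for pud-4, and between -1.73 (pud-1.1) and -1.18 (pud-2.1) for the other 4. At 4-fold, 2 of 6 (pud-3 and pud-4) were lower, beside 3.14% of all genes tested. This comparison uses the same double strain values as the one above and is no independent measurement.

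In contrast, cpl-1* worms had higher levels than wild type for all 6 genes, but by small factors. The share of all genes with any increase was not computed. As near-identical copies may share reads, the 6 are not separate values. The pud-3 level was 2.21-fold higher in cpl-1* and the pud-4 level 1.99-fold higher. The increase was 1.89-fold for pud-2.1, 1.64-fold for pud-1.2, 1.298-fold for pud-1.1 and 1.21-fold for pud-2.2. At a 2-fold threshold on the log2 scale with 1 FPKM added, 1 of 6 genes (pud-3) was higher in cpl-1*, beside 9.13% of all genes tested, and 0 of 6 were lower, beside 1.33%. At 4-fold, 0 of 6 were higher in cpl-1*, beside 1.87% of all genes tested. The ratio of pud-4, at 0.99, lay just under the threshold, and relative to the median gene (-0.020) it lay just above, at 1.01. Without values per sample it cannot be said whether differences of this size exceed the spread between samples. The cpl-1* values also enter the comparison with the double strain, so a high cpl-1* value raises both differences.

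**Figure D3:**
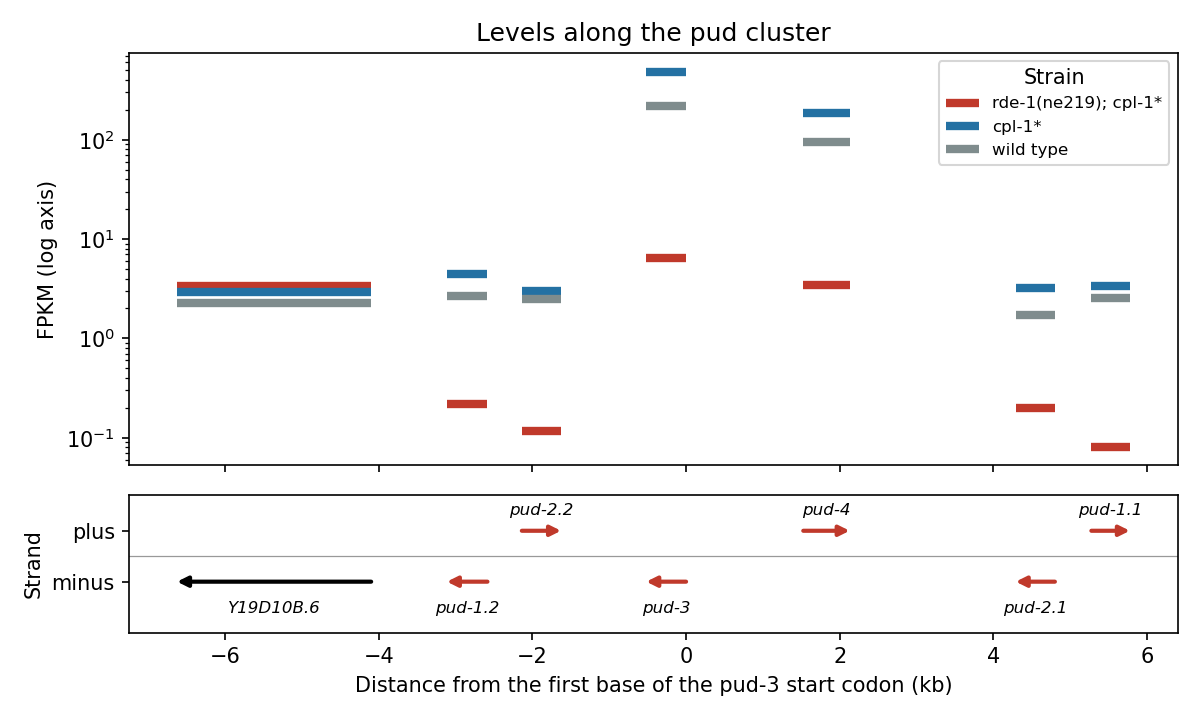
FPKM (log axis, upper panel) of the 6 pud genes and the neighbour Y19D10B.6 along the cluster, drawn at their distance in kb from the first base of the pud-3 start codon, with 1 bar per strain (red, rde-1(ne219); cpl-1*; blue, cpl-1*; grey, wild type). The lower panel shows strand and direction of each gene; the red bars drop in all 3 head-to-head pairs but not in Y19D10B.6, where the strains lie between 2.27 and 3.36 FPKM.

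The only neighbour that could be compared did not share the low levels of the double strain. Of 7 other identifiers within 10 kb, only Y19D10B.6 (WBGene00021235) reached 1 FPKM. This protein-coding gene on the minus strand had 3.36 FPKM in the double strain, 2.91 FPKM in cpl-1* and 2.27 FPKM in wild type. The strains thus stood in another order than for the pud genes, with the double strain highest. The remaining 6, 5 of them irld genes of the insulin- and EGF-receptor-like family, had at most 0.341 FPKM in any strain and allow no comparison.

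The genes with a pattern most like pud-3 were then looked up. Likeness was the distance in the 2 log2 ratios (double strain over cpl-1*, and cpl-1* over wild type, with 1 FPKM added) over 3 pooled values, among 8066 other genes with at least 10 FPKM in cpl-1*. The first of these ratios is the one by which pud-3 was picked. Its nearest genes are therefore bound to be others with large decreases, and the order is a description. The nearest was pud-4, at a distance of 0.64. Next came D1065.6 (WBGene00268212), also on chromosome V, at 1.37. It was listed at 0 FPKM in the double strain, with 97.5 FPKM in cpl-1* and 104 FPKM in wild type. The following 3 were the vitellogenins vit-1, vit-3 and vit-4 on the X chromosome, at distances of 1.70, 1.74 and 1.89. Vitellogenins are yolk proteins that the adult intestine makes and passes to the oocytes. The vit-1 mRNA had 38.4 FPKM in the double strain, 981 FPKM in cpl-1* and 884 FPKM in wild type. In cpl-1* relative to wild type, where pud-3 differed by 2.21-fold, the median log2 ratio of the 6 vitellogenins was 0.027. With the summed level of the 6 pud genes as the starting point, D1065.6 was nearest, at 1.38, and vit-1, vit-3, vit-4 and vit-2 followed.

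Markers of other cell types and of adult stage moved in the same comparison, and their part in the pud levels was not tested. In whole worms, fewer cells of a type and less RNA per cell cannot be told apart. All 6 yolk genes were 2-fold or more lower in the double strain than in cpl-1*, with a median log2 ratio of -4.31 and a summed level of 567 FPKM in the double strain, 9580 FPKM in cpl-1* and 9594 FPKM in wild type. All 9 oocyte markers were lower as well, with a median of -2.13 and a narrow range from -2.38 (oma-2) to -1.92 (oma-1). Sperm markers went the other way, with 4 of 7 at least 2-fold higher in the double strain, 0 lower and a median of 1.06. Of all genes tested, 11.1% were 2-fold or more lower in this comparison and 19.3% were higher.

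Markers of the tissues in which PUD-1 and PUD-2 are made were counted in the same way. Of 12 intestine markers, 0 were 2-fold or more lower in the double strain than in cpl-1*, beside 11.1% of all genes tested, and 3 were higher (elt-2, ifb-2 and cpr-1), beside 19.3%, with a median log2 ratio of 0.41. Ratios below 0 were found for asp-1 (-0.64), mtl-2 (-0.39), spl-1 (-0.12) and vha-6 (-0.03). Relative to wild type, 2 of 12 were 2-fold or more lower (cpr-1 and mtl-2) and 3 were higher, beside 15.8% and 26.3% of all genes tested. The GATA factor gene elt-2, which directs intestinal identity, had 26.6 FPKM in the double strain, 11.4 FPKM in cpl-1* and 9.67 FPKM in wild type. Summed over the list, intestine markers had 3136 FPKM in the double strain, 3236 FPKM in cpl-1* and 3719 FPKM in wild type. In the same order of strains, asp-1 had 1283, 2003 and 1929 FPKM, act-5 had 862, 523 and 374 FPKM, and cpr-1 had 282, 133 and 869 FPKM. These genes moved in opposite directions, so the sum does not show a steady level of each marker. The nhx-2 mRNA, whose promoter drives the transgene, had 43.0 FPKM in the double strain, 33.2 FPKM in cpl-1* and 24.8 FPKM in wild type. Of 7 epidermis markers, 3 were higher in the double strain than in cpl-1* (dpy-7, che-14 and lin-29) and 1 was lower (col-19). The median was 0.75, and of all genes tested 19.3% were higher and 11.1% lower. Summed over this list, the level was 901 FPKM in the double strain, 1886 FPKM in cpl-1* and 1757 FPKM in wild type, of which col-19 made up the greater part in every strain. The col-19 gene encodes a cuticle collagen of the adult stage, with 745 FPKM in the double strain, 1837 FPKM in cpl-1* and 1714 FPKM in wild type. The larval collagen gene dpy-7 had 94.2 FPKM in the double strain, 9.58 FPKM in cpl-1* and 2.36 FPKM in wild type.

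Finally, genes of the pathway that names the family were considered. Between the double strain and cpl-1*, 1 of 10 daf-2 pathway genes was 2-fold or more lower (pdk-1, a kinase upstream of AKT-1) and 1 was higher (pqm-1, which encodes a zinc-finger factor that acts in a complementary manner to DAF-16), beside 11.1% and 19.3% of all genes tested. Between the double strain and wild type, 5 of 10 were lower and 1 was higher, with a median log2 ratio of -1.01, beside 15.8% and 26.3% of all genes tested. The receptor gene daf-2 had 12.7 FPKM in the double strain, 19.4 FPKM in cpl-1* and 29.9 FPKM in wild type. The transcription factor gene daf-16 had 54.0 FPKM in the double strain, 59.8 FPKM in cpl-1* and 69.2 FPKM in wild type. These mRNA levels do not measure the activity of DAF-16, and its part in the pud levels was not tested. In the double strain relative to cpl-1*, age-1, akt-1 and hcf-1 lay just inside the 2-fold threshold, each at a log2 ratio of -0.99. The count of 1 lower gene there thus rests on a narrow margin. Relative to the median gene (0.12) each of them passes the threshold, but the share of all genes on that scale was not computed. In the double strain relative to wild type, all of them were among the 5 lower genes.

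Other genes that are raised in daf-2 mutants differed in direction between the comparisons. Of 20 such genes tested, 3 were 2-fold or more lower in the double strain than in cpl-1* and 2 were higher, beside 11.1% and 19.3% of all genes, with a median log2 ratio of 0.29. The lower ones were dod-3, hsp-12.6 and sip-1, and hsp-12.6 and sip-1 encode small heat shock proteins. The dod-3 mRNA had 1.41 FPKM in the double strain, 8.62 FPKM in cpl-1* and 57.8 FPKM in wild type. In the double strain relative to wild type, 8 of the 20 were lower, as all 6 pud genes were, and 2 were higher, beside 15.8% and 26.3% of all genes, with a median of -0.43. In cpl-1* relative to wild type, 6 of the 20 were lower and 0 were higher, beside 1.33% and 9.13% of all genes. The 6 pud genes lay on the higher side, with 1 of 6 at 2-fold or more. The metallothionein gene mtl-1 had the lowest ratio of the 20, with 4.74 FPKM in the double strain, 2.44 FPKM in cpl-1* and 117 FPKM in wild type.

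The set known to be lowered in daf-2 mutants split within itself. In the double strain relative to cpl-1*, 3 of 7 were 2-fold or more lower (dod-21, dod-23 and dod-24) and 2 were higher (dod-19 and dod-20), beside 11.1% and 19.3% of all genes tested. In cpl-1* relative to wild type, 5 of 7 were higher and 0 were lower, beside 9.13% and 1.33% of all genes, with a median log2 ratio of 2.58. Of these, dod-24 had the strains in the same order as pud-3, at 3.80 FPKM in the double strain, 59.8 FPKM in cpl-1* and 8.50 FPKM in wild type.

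**Figure D4:**
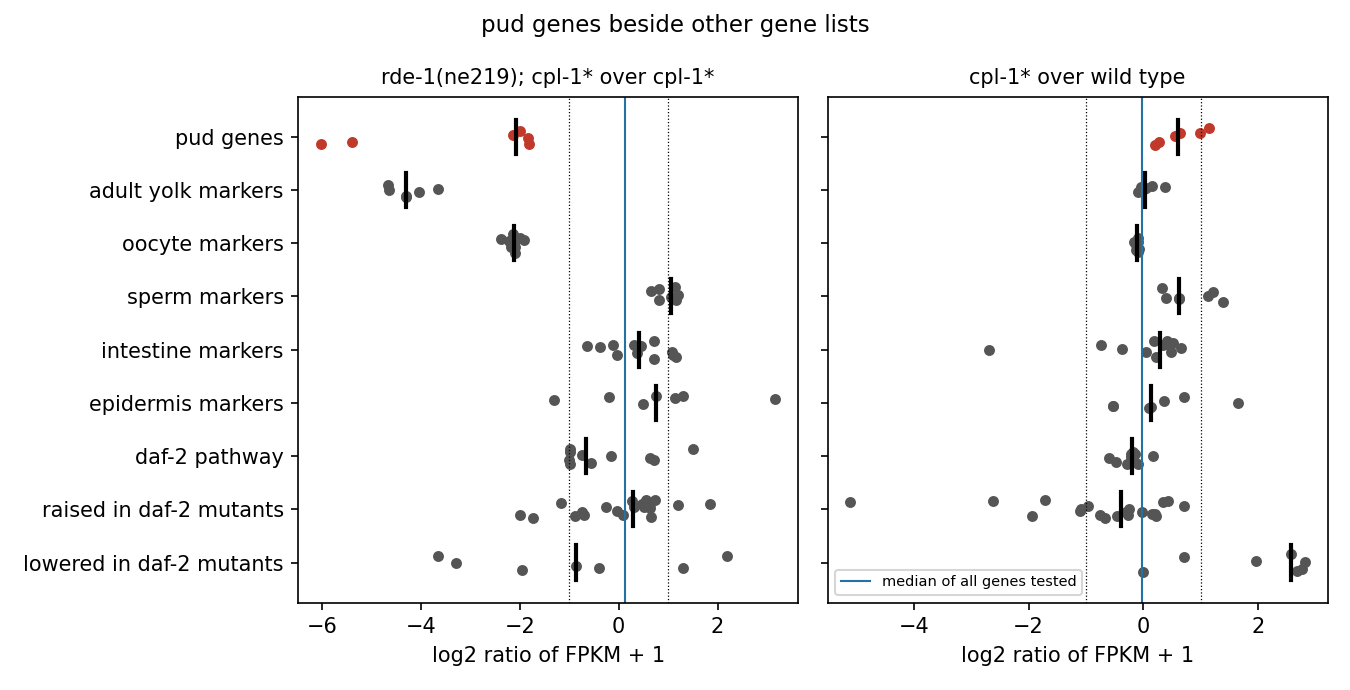
Log2 ratios of FPKM + 1 for the 6 pud genes (red) and for the tested members of other gene lists (grey), in rde-1(ne219); cpl-1* over cpl-1* (left) and cpl-1* over wild type (right); each point is 1 gene, black bars are list medians, dotted lines mark 2-fold, and the blue line is the median of all genes tested. The pud genes lie low on the left beside the yolk and oocyte markers, while on the right they lie above zero and the yolk and oocyte markers lie near it.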

How the data were processed

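Total RNA of 12 samples, 3 for each of 4 strains, was sequenced. Per the methods, the authors aligned reads with HISAT2 against Ensembl release 91 transcripts, ran a guided StringTie assembly, and used Cufflinks for quantification. The submitters' processing notes list WBcel235, FastQC 0.11.7, HISAT2 2.1.0, StringTie 1.3.4d and Cuffdiff 2.2.1. The deposited FPKM values hold 1 pooled value per gene and strain for 3 strains, and the depth per sample is unknown. The fold change, test statistic, p and q columns hold the authors' own comparisons and were not used. Of 46218 entries per comparison, 1 repeated an identifier and was dropped. Ratios were log2(FPKM + 1) differences over genes with at least 1 FPKM in a strain. All 6 members passed this minimum, but only 2 reached it in the double strain. A call means a 2-fold difference, without a test. Named genes were the members, the 5 nearest to pud-3 and to the family sum, genes within 10 kb with at least 1 FPKM, list examples, and rde-1, cpl-1 and nhx-2. Of 86 list symbols, 5 stand on entries with joined symbols and were left out. Members and lists were chosen with earlier results of these data known. Coordinates are from Ensembl release 115 of WBcel235. Computation used pandas 2.3.3 and numpy 2.4.6 in Python 3.11.15, and scripts were tested on simulated data. Alternatives were a pseudocount of 0.1 or none, centring on the median gene, a 4-fold threshold, no FPKM minimum, summed copies, scaling to the FPKM sum, and a lower minimum for likeness. Dropping the FPKM minimum could not alter the counts of members, since all 6 passed it.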

Additional observations from a re-analysis of the deposited data

How the results depend on the processing

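The direction of every pud log2 ratio held under a pseudocount of 0.1, no pseudocount and centring on the median gene. At a 4-fold threshold, the genes lower in the double strain than in wild type numbered 2 of 6 (pud-3 and pud-4), and those lower than in cpl-1* numbered 4 of 6, since the added 1 FPKM shrinks the ratios of the low genes. For cpl-1* above wild type, the count was 2 of 6 relative to the median gene and 0 of 6 at 4-fold. At 4-fold the share of all genes tested was 1.87%, and relative to the median gene it was not computed. Among genes raised in daf-2 mutants, 5 of 20 were lower in the double strain than in cpl-1* with a pseudocount of 0.1. At 4-fold, 0 of 20 were lower, beside 1.98% of all genes tested, so nothing is read from that count. The share of all genes with a pseudocount of 0.1 was not computed. These settings for the list were chosen after seeing the data. Summing the copies left 4 of 4 values lower in the double strain and 1 of 4 higher in cpl-1*. The count of lower values could not change, because every summed copy was already 2-fold lower and pud-3 and pud-4 were not summed. Scaling to the FPKM sum moved no level by more than 1.5 times, and could do little, as the FPKM sums of the strains were close. The 5 genes nearest to pud-3 were the same with a minimum of 1 FPKM, but this list could not change. With 1 FPKM added, the genes admitted by the lower minimum have too low a level in cpl-1* for decreases of that size. No paired analysis was possible because the values are pooled per strain, and for the same reason no replicate could be left out.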

Other observations

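The surroundings of the pud cluster were also looked at over a wider window, chosen after the values within 10 kb had been seen. Within 100 kb of the cluster, 20 other genes had at least 1 FPKM in a strain. Of these, 0 were 2-fold or more lower in the double strain than in cpl-1*, beside 11.1% of all genes tested. With only 20 genes and no test, nothing is read from this count. Their log2 ratios with 1 FPKM added ranged from -0.088 (cyp-33C3, a cytochrome P450 gene) to 1.40. The median was 0.71, against 0.12 for all genes tested and -1.82 or less for every pud gene. The pud genes were picked on this comparison, so the contrast with them is a description.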
